A study of Mus musculus with 4 samples.

Results

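The cytosolic ribosomal protein genes were followed in RAW 264.7 cells, a mouse macrophage line, that carried the long noncoding RNA Dnm3os or an empty plasmid. Members were the genes whose mouse symbol is Rpl or Rps followed by a number, together with Rpsa, Rplp0, Rplp1 and Rplp2, and without the Rps6k kinases. The rule goes by gene names, and it gave 90 of the 24422 named genes. They comprised 31 proteins of the small ribosomal subunit, 43 of the large subunit, the 3 P-stalk proteins, 11 paralogs and retrogenes, and 2 genes, Rps19bp1 and Rps23rg1, that share the naming pattern without coding for a ribosomal protein. The first group was 2 libraries from cells stably carrying Dnm3os in the plasmid pcDNA 3.1(+), in which a viral promoter drives the insert. The second group was 2 libraries from cells stably carrying the empty pcDNA 3.1(+) plasmid. All cells were grown in medium with 5.5 mmol/L glucose and used at passages 3 to 6. The sources used here do not say whether the stable cells were clones or pools, nor whether replicate libraries were grown as separate cultures, so p-values measure the spread between these libraries alone. The comparison asks how the mRNAs of the ribosome's own proteins stand in cells that carry Dnm3os.

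Ribosomal proteins assemble with ribosomal RNA in the nucleolus into a small subunit, which decodes the mRNA, and a large subunit, which joins the amino acids. Their mRNAs are among the most abundant of any growing cell, and most begin with a terminal oligopyrimidine (TOP) tract, an initial C followed by further pyrimidines, through which the kinase complex mTORC1 and the RNA-binding protein LARP1 control their translation. The transcription factor MYC raises ribosome production, and free ribosomal proteins such as RPL5 and RPL11 bind MDM2 when assembly fails, which links the ribosome to p53. In macrophages, protein synthesis supports growth and the output of cytokines and lysosomal enzymes.

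The shared start of these genes can be seen in the reference sequence. RefSeq promoter windows of build GRCm38.p6 were matched for 57 of the 77 small-subunit, large-subunit and stalk genes, giving 67 windows since some genes have several annotated starts. The windows below are shown because they belong to 3 of the members called higher and to Rplp2, which had the highest fold change, with Rps6 and Rpl28 as members whose fold change was near 0. Each runs 5′ to 3′ on the transcribed strand, with 35 bases before the annotated start and 25 from it on, and capitals mark its longest run of C and T. They lie at chr17:27635220-27635279, minus strand (Rps10), chr3:130730313-130730372, minus strand (Rpl34), chr8:123102315-123102374, plus strand (Rpl13), chr7:141447616-141447675, plus strand (Rplp2), chr4:86857343-86857402, minus strand (Rps6), and chr7:4792930-4792989, plus strand (Rpl28).
Rps10: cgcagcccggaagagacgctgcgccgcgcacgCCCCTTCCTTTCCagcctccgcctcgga
Rpl34: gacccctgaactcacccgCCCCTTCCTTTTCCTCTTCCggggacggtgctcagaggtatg
Rpl13: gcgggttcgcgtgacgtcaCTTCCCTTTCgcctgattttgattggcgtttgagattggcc
Rplp2: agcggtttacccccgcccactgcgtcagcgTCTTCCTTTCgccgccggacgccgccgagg
Rps6: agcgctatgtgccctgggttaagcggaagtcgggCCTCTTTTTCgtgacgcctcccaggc
Rpl28: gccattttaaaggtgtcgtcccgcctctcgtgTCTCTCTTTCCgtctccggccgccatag

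Except in Rpl13, the pyrimidine run lay across the annotated start in these windows. In Rpl13 it began 16 bases before the start and was 10 bases long, so it ended upstream of the start. Over the 6 windows its length was between 10 and 20 bases. For Rpl34 a later listed start was chosen, while the other genes are shown at their first listed start. Searched on the transcribed strand within 20 bases either side of the start, the letters CTTTC were found in 26.9% of the 67 windows, against 5.49% of all 32851 RefSeq windows. The longer CTCTTTC, which contains CTTTC, was found in 10.4% of the ribosomal protein windows, against 0.560% of all windows. A run of at least 8 pyrimidines stood in 43.3% of the ribosomal protein windows, against 16.0% of all windows. Over the full 300 bases and on both strands, CGGAAG, the core of ETS family binding sites, was found in 62.7% of the ribosomal protein windows, against 16.9% of all windows. TATAAA, likewise on both strands, was found in 8.96% of the ribosomal protein windows, against 13.6% of all windows. These matches describe letters in a window and are no evidence that a factor binds there.

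Summed counts with 1 transcript kept per gene were 29416272 and 34314038 in Dnm3os libraries 1 and 2, and 39769640 and 35447766 in empty vector libraries 1 and 2. Wherever 2 values of a group are given, they are those of its library 1 and library 2 in that order. Dnm3os itself was counted 208 and 260 times in the Dnm3os libraries and 0 and 0 times in the empty vector libraries, as the labels have it. All 10 macrophage markers checked were tested, and their summed level was 11595 and 11112 CPM (counts relative to the scaled library size) in the Dnm3os libraries and 10378 and 10215 CPM in the empty vector libraries. Of the 10, edgeR called 5 (50%, beside 12.3% of all genes), with Itgam, Csf1r and Lyz2 higher and Adgre1 and Cd68 lower in the Dnm3os libraries, and the log2 fold changes ran from -0.30 to 1.01. Epcam, Cdh1, Cd3e, Ms4a1, Col1a2, Pdgfra, Thy1, Cpa3 and Mpo were at 0 in all 4 libraries. The 4 endothelial markers summed to 1.02 and 0.904 CPM in the Dnm3os libraries and to 0.326 and 0.453 CPM in the empty vector libraries, and the 4 mast cell and granulocyte markers to 5.95 and 5.19 CPM in the Dnm3os libraries and 4.54 and 4.27 CPM in the empty vector libraries. Of the endothelial markers 1, Kdr, passed the filter on low counts, and it was called higher, with 0.713 and 0.642 CPM in the Dnm3os libraries and 0.201 and 0.311 CPM in the empty vector libraries. The part of these differences in the results was not tested. In bulk RNA, a change in the RNA of each cell and a change in the mix of cells cannot be told apart.

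Ribosomal protein mRNAs differed little between cells with Dnm3os and cells with the empty vector. Of the 86 members that passed the filter on low counts, 4 were called higher in the Dnm3os libraries and 0 lower, at an adjusted p under 0.05 by edgeR's quasi-likelihood test with Benjamini-Hochberg adjustment over all 13172 genes tested. The 4 were Rps29, Rpl34, Rps10 and Rpl13. They made up 4.65% of the tested members, beside 12.3% of all genes called in either direction, 6.51% called higher and 5.75% called lower. Among the other 2190 genes with a mean of at least 100 CPM, a level that most members exceed, 20.4% were called. At an unadjusted p under 0.05, 17 members passed, 0 of them lower, which is beside 23.2% of all genes. DESeq2 called 1 member, Rps29, as higher, with 5.82% of all genes called and 3.07% called higher. Limma-voom called these 4 and Rps15a higher, 5 members in all, with 12.1% of all genes called and 6.47% called higher. Without Dnm3os library 1 edgeR called 0 members. The count was 2 without Dnm3os library 2, and leaving out library 1 or 2 of the empty vector group gave 5 and 2 called members. The 5 were Rpl41, Rplp2, Rps10, Rps24 and Rps29, and the 2 without empty vector library 2 were Rps15a and Rps29.

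Small as they were, the differences leaned to one side. The log2 fold change, Dnm3os over empty vector, was above 0 for 71 of the 86 tested members and below 0 for 15. The median was 0.031, beside 0.00061 over all genes tested and -0.0041 over the other genes of at least 100 CPM. Under the 10 other settings tried on all 4 libraries the median stayed between 0.026 and 0.031, and it ran from 0.020 to 0.038 when each library was left out in turn. For 47 members, or 54.7%, both Dnm3os libraries lay above both empty vector libraries, where this held for 26.2% of all genes tested and for 29.3% of the other genes of at least 100 CPM. Of the 77 small-subunit, large-subunit and stalk genes alone, 64 had a log2 fold change above 0 and 13 below. Both Dnm3os libraries lay above both empty vector libraries for 42 of the 77. The mitochondrial ribosomal proteins, a separate set described further on, leaned the same way. Their median was 0.039, with 56 of 78 above 0 and 22 below. For 42.3% of them both Dnm3os libraries lay above both empty vector libraries. The members were measured in the same 4 libraries, so these counts are not those of independent observations.

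The spread among the members was narrow. The SD of their log2 fold changes was 0.038, or 0.033 without Rplp2, beside 0.39 over all genes tested and 0.12 over the other genes of at least 100 CPM. The highest log2 fold change was 0.23, for Rplp2, and 83 of 86 were within 0.1 of 0 on the log2 scale. For 74 members the 95% interval of the fold change lay within 1.1-fold in either direction, and for 85 members within 1.2-fold. The exception was Rplp2. The median size of a member's log2 fold change was 0.031, while the median difference between the 2 libraries of a group was 0.025 in the Dnm3os group and 0.022 in the empty vector group.

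**Figure D1:**
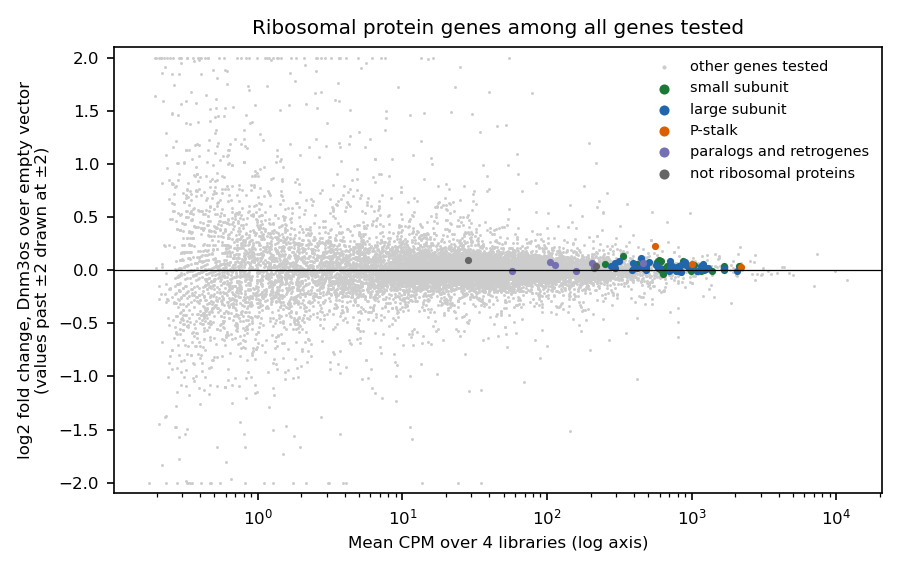
Each point is 1 of the 13172 genes tested, with its mean CPM over the 4 libraries on a log axis and its log2 fold change, Dnm3os over empty vector, on the vertical axis. Coloured points are the 86 tested members by class; they lie close to 0 at the right of the plot, and the highest is Rplp2 at 0.23.

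Summed over the 90 members, ribosomal protein genes took 6.57% of the counts in Dnm3os library 1 (95% Wilson interval 6.559 to 6.577%) and 6.51% in Dnm3os library 2 (6.503 to 6.520%). Their share was 6.44% in empty vector library 1 (6.431 to 6.446%) and 6.37% in empty vector library 2 (6.364 to 6.381%). The intervals cover counting error only. The sum includes Rps19bp1 and Rps23rg1, and reads of near-identical copies such as Rps27 and Rps27rt can enter it more than once. Both Dnm3os libraries were above both empty vector libraries, with means of 6.54 ± 0.0402% in the Dnm3os group and 6.41 ± 0.0464% in the empty vector group (SD, n = 2 each) and a difference of 0.134 percentage points. With counts over all transcripts as denominator the difference was 0.0885 percentage points. That larger denominator lowers the share of every library, so the 2 differences are not on the same scale. A two-sided exact permutation test gave p = 0.333, which is the smallest p that 2 libraries against 2 allow. The small-subunit genes held 2.64 and 2.62% of the counts in the Dnm3os libraries and 2.59 and 2.56% in the empty vector libraries. The large-subunit genes held 3.39 and 3.35% in the Dnm3os libraries and 3.32 and 3.296% in the empty vector libraries. The stalk genes held 0.383 and 0.389% in the Dnm3os libraries and 0.375 and 0.362% in the empty vector libraries, so that the groups did not overlap in any of these 3 classes.

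**Figure D2:**
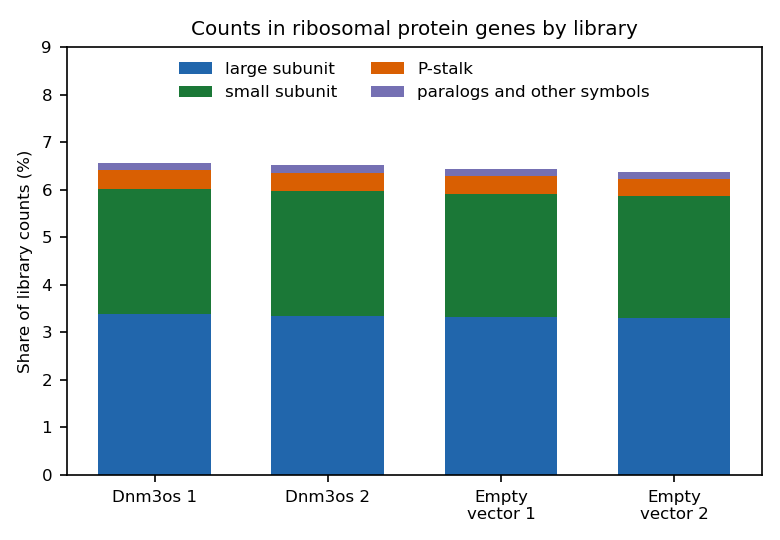
Bars give the share of library counts (1 transcript per gene) that fell in ribosomal protein genes, stacked by class, in each of the 4 libraries. The totals are 6.57 and 6.51% in the Dnm3os libraries and 6.44 and 6.37% in the empty vector libraries.

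Among the 31 small-subunit proteins, Rps29 and Rps10 rose in the Dnm3os libraries and the other 29 did not pass the test. Rps29, a zinc-binding protein of the subunit's head, had 351 and 346 CPM in the Dnm3os libraries, against 321 and 315 CPM in the empty vector libraries. Both Dnm3os libraries stood above both empty vector libraries, by more than the 2 libraries of either group differed. The means were 348 ± 3.59 CPM in the Dnm3os group and 318 ± 3.90 CPM in the empty vector group (SD, n = 2 each), a 1.095-fold difference with a log2 fold change of 0.13 ± 0.030 (SE; adjusted p = 0.00491 by edgeR). The call held under 13 of the 14 alternatives tried and was lost without Dnm3os library 1 (adjusted p = 0.0892 by edgeR).

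Rps10, at the subunit's beak and a target of ubiquitination when ribosomes stall, had 618 and 607 CPM in the Dnm3os libraries, against 588 and 559 CPM in the empty vector libraries. The groups did not overlap, and the empty vector libraries were further from each other than the Dnm3os libraries were. Its log2 fold change was 0.10 ± 0.029 (SE; adjusted p = 0.0360 by edgeR), or 1.07-fold. This call held under 8 of the 14 alternatives. It was lost with DESeq2 (adjusted p = 0.124) and with isoforms summed (adjusted p = 0.0989 by edgeR), and by edgeR the adjusted p was 0.292 without Dnm3os library 1, 0.144 without Dnm3os library 2 and 0.356 without empty vector library 2.

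The small-subunit proteins named for their roles gave values on either side of 0. Rpsa, also known as the laminin receptor, had 2131 and 2149 CPM in the Dnm3os libraries and 2065 and 2093 CPM in the empty vector libraries. Rps2, near the mRNA entry channel, had 1684 and 1723 CPM in the Dnm3os libraries and 1668 and 1652 CPM in the empty vector libraries. In both genes the Dnm3os libraries were above the empty vector libraries, with log2 fold changes of 0.041 (95% interval -0.0021 to 0.085) and 0.037 (-0.0091 to 0.084). Rps3, which lines the mRNA entry channel and in human cells also binds NF-kB, had 1216 and 1216 CPM in the Dnm3os libraries and 1208 and 1218 CPM in the empty vector libraries. Rps6, the classic substrate of the S6 kinases, had 1385 and 1363 CPM in the Dnm3os libraries and 1359 and 1395 CPM in the empty vector libraries. The groups overlapped in both, and the log2 fold changes were 0.0032 (-0.045 to 0.052) for Rps3 and -0.0032 (-0.052 to 0.046) for Rps6.

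Rps19 and Rps14, whose loss of a single copy underlies Diamond-Blackfan anaemia and the 5q- syndrome in humans, did not pass the test. Rps19 had 588 and 585 CPM in the Dnm3os libraries and 563 and 550.4 CPM in the empty vector libraries, without overlap, at a log2 fold change of 0.075 ± 0.028 (SE; adjusted p = 0.0875 by edgeR). Rps14 had 690.3 and 678 CPM in the Dnm3os libraries and 675 and 689 CPM in the empty vector libraries, with overlap, at 0.0047 (95% interval -0.051 to 0.061). Rps27a, made as a fusion with ubiquitin, had 1169 and 1158 CPM in the Dnm3os libraries and 1163 and 1179 CPM in the empty vector libraries, with overlap, at -0.0094 (-0.059 to 0.040).

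Over the 31 small-subunit genes the median log2 fold change was 0.037, with 27 above 0 and 4 below. The Dnm3os libraries lay above the empty vector libraries for 17 of them (54.8%, beside 26.2% of all genes tested and 29.3% of the other genes of at least 100 CPM), among them Rps10, Rps15a, Rps19, Rps20, Rps24 and Rps29. The groups overlapped for others, such as Rps3, Rps6, Rps12, Rps14 and Rps27a.

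Among the 43 large-subunit proteins, Rpl34 and Rpl13 rose in the Dnm3os libraries and the other 41 did not pass the test. Rpl34, a small basic protein at the surface of the subunit, had 478 and 454 CPM in the Dnm3os libraries, against 434 and 429 CPM in the empty vector libraries. The groups did not overlap, though Dnm3os library 1 stood well above Dnm3os library 2. Its log2 fold change was 0.11 ± 0.031 (SE; adjusted p = 0.0198 by edgeR), or 1.08-fold, and the call held under 10 of the 14 alternatives. DESeq2 gave an adjusted p of 0.0636. By edgeR the adjusted p was 0.344 without Dnm3os library 1, and 0.0573 and 0.0607 when library 1 or 2 of the empty vector group was left out.

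Rpl13, a large-subunit protein whose human variants cause a skeletal dysplasia, had 914 and 927 CPM in the Dnm3os libraries, against 879 and 861 CPM in the empty vector libraries. The groups did not overlap, and libraries of a group were closer to each other than to those of the other group. Its log2 fold change was 0.082 ± 0.025 (SE; adjusted p = 0.0371 by edgeR), or 1.06-fold. The call held under 6 of the 14 alternatives and was lost when any library was left out, with an adjusted p by edgeR of 0.157 and 0.281 without Dnm3os library 1 and 2, and of 0.0814 and 0.212 without library 1 and 2 of the empty vector group. DESeq2 gave 0.136, and by edgeR the adjusted p was 0.0514 with upper-quartile factors and 0.0961 with isoforms summed.

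Large-subunit proteins that bind MDM2 outside the ribosome showed no difference that passed the test. Rpl5 had 1165 and 1138 CPM in the Dnm3os libraries and 1149 and 1154 CPM in the empty vector libraries. Rpl11 had 822 and 816 CPM in the Dnm3os libraries and 824 and 819.8 CPM in the empty vector libraries. The groups overlapped in both, with log2 fold changes of -0.00069 (95% interval -0.051 to 0.049) and -0.0050 (-0.058 to 0.048). Rpl23, which also binds MDM2, had 941 and 906 CPM in the Dnm3os libraries and 889 and 891 CPM in the empty vector libraries. Its Dnm3os libraries were the higher, at a log2 fold change of 0.053 ± 0.026 (SE; adjusted p = 0.228 by edgeR).

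Rpl3, which shapes the peptidyl transferase centre, had 1681 and 1667 CPM in the Dnm3os libraries and 1650.0 and 1666 CPM in the empty vector libraries, barely apart, at a log2 fold change of 0.014 (95% interval -0.031 to 0.060). Rpl13a, which in human monocytic cells can leave the ribosome and silence inflammatory mRNAs, had 963 and 955 CPM in the Dnm3os libraries and 956 and 939 CPM in the empty vector libraries, with overlap, at 0.016 (-0.035 to 0.068). Rpl39, a short protein of the exit tunnel, had 404 and 371 CPM in the Dnm3os libraries and 380.3 and 394 CPM in the empty vector libraries, with overlap, at 0.00087 (-0.079 to 0.081).

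Over the 43 large-subunit genes the median log2 fold change was 0.022, with 34 above 0 and 9 below. The Dnm3os libraries lay above the empty vector libraries for 22 of them (51.2%, beside the same 26.2% and 29.3%), among them Rpl3, Rpl10, Rpl13, Rpl34 and Rpl41. The groups overlapped for others, such as Rpl5, Rpl7, Rpl11, Rpl13a, Rpl22, Rpl36a and Rpl39.

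The P-stalk is the arm of the large subunit that recruits the GTPases of translation, with Rplp0 as its base and Rplp1 and Rplp2 as its dimers. Rplp0, the most abundant member by CPM, had 2235 and 2240.2 CPM in the Dnm3os libraries, against 2193 and 2176 CPM in the empty vector libraries. Rplp1 had 1028 and 1011 CPM in the Dnm3os libraries, against 985 and 979 CPM in the empty vector libraries. Both genes had higher values in the Dnm3os libraries without overlap, and neither passed the test, with log2 fold changes of 0.035 ± 0.021 and 0.054 ± 0.025 (SE; adjusted p = 0.342 and 0.182 by edgeR).

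Rplp2 varied most of all members. It had 568 and 644 CPM in the Dnm3os libraries, against 558 and 478 CPM in the empty vector libraries, so that the highest Dnm3os and the lowest empty vector library stood apart from the other 2. The groups did not overlap, and the libraries within each group differed about as much as the groups did. The log2 fold change was 0.23 ± 0.14 (SE), with a 95% interval of -0.32 to 0.78 and an adjusted p of 0.531 by edgeR. Without empty vector library 1 it was called (log2 fold change 0.34, adjusted p = 9.2e-15 by edgeR), in a fit whose lone empty vector library is assumed to vary like the others, and under the other 13 alternatives it was not.

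**Figure D3:**
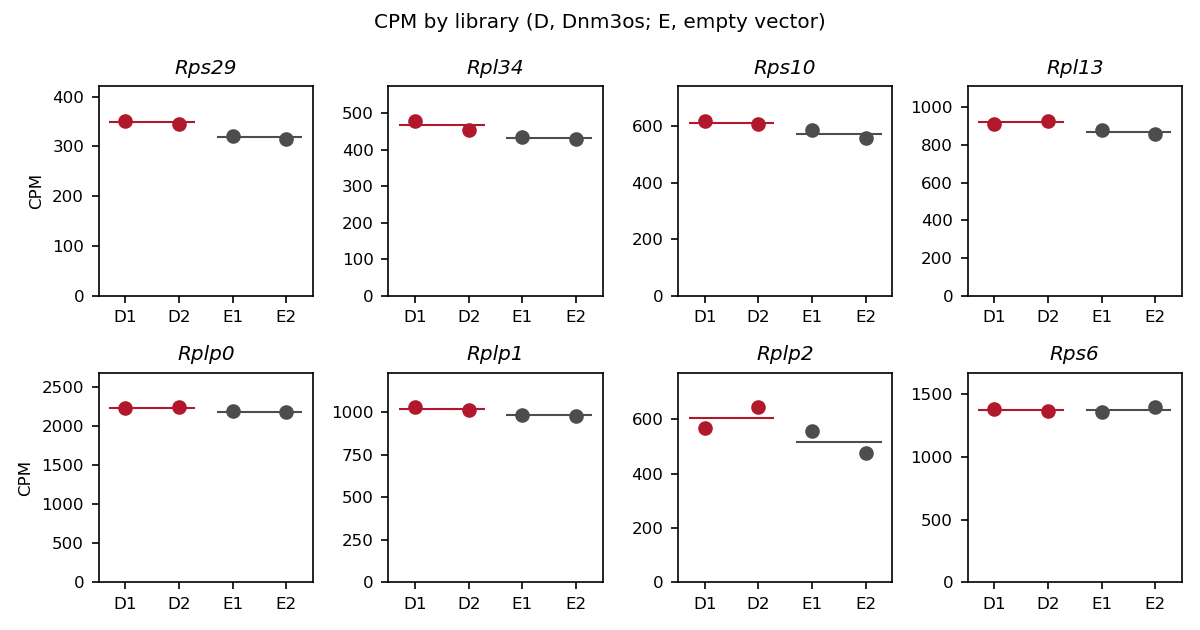
Points are CPM in each library (D, Dnm3os; E, empty vector) and lines are group means for the 4 called members, the 3 stalk proteins and Rps6, on axes that start at 0. Rps29 shows 351 and 346 CPM in the Dnm3os libraries against 321 and 315 CPM in the empty vector libraries, while the 4 values of Rplp2 are spread more widely than those of the other 7 genes.

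**Figure D4:**
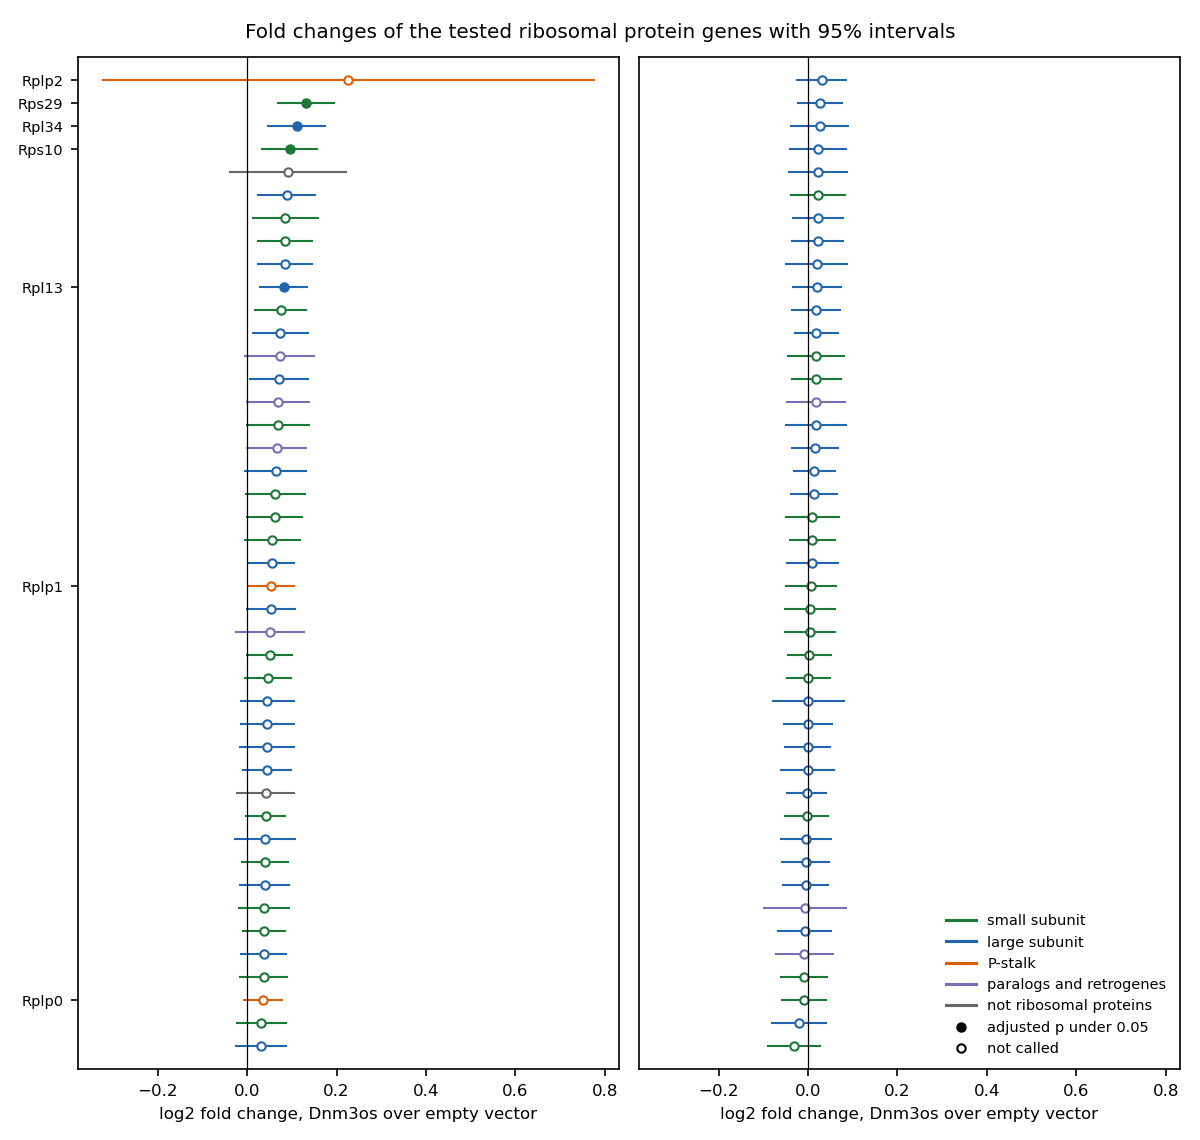
Points are log2 fold changes, Dnm3os over empty vector, of the 86 tested members in falling order, with bars for the 95% interval; filled points are the 4 called members and colours mark the class. Names are given for the called members and the stalk proteins. The interval of Rplp2, -0.32 to 0.78, is the widest, and the other 85 lie within 1.2-fold in either direction.

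Of the 11 paralogs and retrogenes, 7 were expressed enough to be tested and 0 were called, beside 12.3% of all genes. The 4 others were at or near 0 in these macrophages. Rpl10l, which stands in for Rpl10 in the testis, had 0 counts in all 4 libraries, and the testis paralog Rpl39l had 1 count in each Dnm3os library and 0 in each empty vector library. Rpl3l, the paralog of Rpl3 in muscle, was counted 0 and 3 times in the Dnm3os libraries and 1 and 3 times in the empty vector libraries. Rps4l, annotated as a transcribed pseudogene, was counted 0 times in both Dnm3os libraries and 1 and 3 times in the empty vector libraries. Their common counterparts stood far higher, since Rpl10 had 1244 and 1212 CPM in the Dnm3os libraries and 1187 and 1176 CPM in the empty vector libraries and Rps4x had 1194 and 1161 CPM in the Dnm3os libraries and 1166 and 1173 CPM in the empty vector libraries.

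The tested paralogs had values close to 0 in fold change. Rpl22l1, a paralog whose expression Rpl22 represses, had 118 and 113 CPM in the Dnm3os libraries and 109 and 114 CPM in the empty vector libraries, and Rpl22 itself had 300.3 and 291 CPM in the Dnm3os libraries and 294 and 288 CPM in the empty vector libraries. The groups overlapped in both, at log2 fold changes of 0.051 ± 0.037 and 0.022 ± 0.032 (SE). Rps27l, a p53 target, had 159.8 and 158 CPM in the Dnm3os libraries and 160.1 and 159.7 CPM in the empty vector libraries, with overlap, at -0.0083 (95% interval -0.072 to 0.056). Rpl36al had 209 and 207 CPM in the Dnm3os libraries and 196 and 202 CPM in the empty vector libraries, without overlap, at 0.066 ± 0.032 (SE; adjusted p = 0.214 by edgeR), and its counterpart Rpl36a had 287 and 274 CPM in the Dnm3os libraries and 269.8 and 276 CPM in the empty vector libraries, with overlap. Rpl7l1 had 209.8 and 213 CPM in the Dnm3os libraries and 210.1 and 208 CPM in the empty vector libraries, and Rpl7 had 1275 and 1237 CPM in the Dnm3os libraries and 1234 and 1255 CPM in the empty vector libraries, with overlap in both.

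Counts of near-identical copies are uncertain, because the same reads can be counted at both. Rps27rt is a retrogene of Rps27, and its count was 99.7% of that of Rps27 in every library; the coding transcripts of the 2 genes had the very same 4 counts, 14369 and 15609 in the Dnm3os libraries and 18105 and 15726 in the empty vector libraries. Of the 325 windows of 50 bases in the Rps27rt transcript, 91.1% also occurred in Rps27. The starts of both genes are shown in the same layout as above, with capitals for their longest shared run, which begins 2 bases into Rps27 and 1 base into Rps27rt, counting the annotated start as 1. They lie at chr3:90213624-90213683, minus strand (Rps27) and chr9:114982715-114982774, minus strand (Rps27rt).
Rps27: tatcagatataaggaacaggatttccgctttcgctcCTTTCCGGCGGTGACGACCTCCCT
Rps27rt: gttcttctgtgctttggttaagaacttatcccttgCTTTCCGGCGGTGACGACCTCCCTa

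The 24 capitals are the same letters in both, whereas the bases upstream differ. With the counts shared, the values of Rps27, 489 and 456 CPM in the Dnm3os libraries and 455 and 446 CPM in the empty vector libraries, cannot be divided between the 2 genes. Rpl37rt counts were 26.8 and 26.5% of those of Rpl37 in the Dnm3os libraries and 25.8 and 27.2% in the empty vector libraries, with 35.04% of its windows shared. Rpl32l counts were 7.15 and 7.50% of those of Rpl32 in the Dnm3os libraries and 7.48 and 7.44% in the empty vector libraries, with 19.4% of its windows shared. Rps23rg1, a retroposed derivative of Rps23 that codes for another protein, had 31.5 and 31.5% of the Rps23 count in the Dnm3os libraries and 31.2 and 31.3% in the empty vector libraries. Rpl22l1, Rps27l, Rpl36al and Rpl7l1 shared 0 windows with their counterparts. Ribosomal protein genes also have many processed pseudogenes, of which 6 were present under symbols with the suffix -ps. Pseudogenes under other symbols were not counted. The part of pseudogenes in the counts of the members was not tested.

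Levels between members were compared per length. Lengths were those of GENCODE transcripts matched to the kept RefSeq transcript, with the upper median where several matched. They can differ from the length of the counted transcript, and the order of the members rests on them. By CPM per kilobase of this length, averaged over the 4 libraries, the highest 5 of the 83 tested members with a length were Rplp1, Rps3a1, Rps12, Rps2 and Rps24. Rpl22, Rpl32l and Rpl37rt had no length in the tables and are not ranked. Rplp1 had 2061 and 2026 CPM per kilobase in the Dnm3os libraries and 1974 and 1963 CPM per kilobase in the empty vector libraries, and Rps3a1, a protein near the mRNA exit, had 1728 and 1687 CPM per kilobase in the Dnm3os libraries and 1687 and 1725 CPM per kilobase in the empty vector libraries. Rps12, of the subunit's beak, had 1704 and 1678 CPM per kilobase in the Dnm3os libraries and 1712 and 1690.1 CPM per kilobase in the empty vector libraries. Rps2 had 1688 and 1726 CPM per kilobase in the Dnm3os libraries and 1671 and 1655 CPM per kilobase in the empty vector libraries, and Rps24 had 1744 and 1694 CPM per kilobase in the Dnm3os libraries and 1685 and 1553 CPM per kilobase in the empty vector libraries, where empty vector library 2 was the lowest. Between Rps3a1, Rps12, Rps2 and Rps24 the levels ran together, and the order changed between libraries. Members just below them were also close, so that Rpl41 stood above Rps24 in Dnm3os library 2, and Rplp0 and Rps6 stood above it in empty vector library 2. The lowest 5 of the ranked members were Rps20, Rps23rg1, Rps15a, Rpl7l1 and Rps19bp1. Rps19bp1, which binds Rps19 and regulates the deacetylase Sirt1, had 34.6 and 35.2 CPM per kilobase in the Dnm3os libraries and 34.1 and 31.4 CPM per kilobase in the empty vector libraries. Rpl7l1 had 80.5 and 81.9 CPM per kilobase in the Dnm3os libraries and 80.6 and 79.8 CPM per kilobase in the empty vector libraries, and Rps23rg1 had 136 and 136 CPM per kilobase in the Dnm3os libraries and 132 and 132 CPM per kilobase in the empty vector libraries. Rps20 had 184 and 183 CPM per kilobase in the Dnm3os libraries and 177 and 179.7 CPM per kilobase in the empty vector libraries and Rps15a had 120.2 and 124 CPM per kilobase in the Dnm3os libraries and 113 and 117 CPM per kilobase in the empty vector libraries, on annotated transcripts of 3706 and 5179 bases that are long for the family, so their place in the order rests on those lengths. In plain CPM the 77 small-subunit, large-subunit and stalk genes had means between 252 and 2211.

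Fold changes were weakly related to the transcript length taken from GENCODE. These matched lengths can differ from those of the counted RefSeq transcripts, so the values below hold for the matched lengths only. Over the 81 tested ribosomal proteins and paralogs with a transcript length, Spearman's rho between length and log2 fold change was -0.27 across genes, and Pearson's r with the log2 of length was -0.17; the genes share the 4 libraries and are not independent. All 11 with up to 500 bases had a fold change above 0, with a median log2 value of 0.063, and for 7 of them the Dnm3os libraries lay above the empty vector libraries. Of the 70 longer ones, 56 were above 0, with a median of 0.024, and for 37 the Dnm3os libraries lay above, where this held for 26.2% of all genes tested. The part of transcript length in the results was not tested.

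Transcripts and small RNAs within the members gave a finer view. RefSeq lists more than 1 transcript for 16 members, and their counts overlap. For Rps24, whose last exons are alternatively spliced, the count not held by the transcript with the lowest count was 5.69 and 5.16% of the gene's count in the Dnm3os libraries and 4.95 and 0.756% in the empty vector libraries. Empty vector library 2 stood apart from the other 3, and no other member with several transcripts varied by more than 1.54 times across libraries. Rps24 itself had 916 and 889 CPM in the Dnm3os libraries, against 885 and 816 CPM in the empty vector libraries, at a log2 fold change of 0.086 ± 0.034 (SE; adjusted p = 0.136 by edgeR), and it was called by edgeR without empty vector library 1 (adjusted p = 0.00184) and with no filter (adjusted p = 0.0485). Without empty vector library 2 its log2 fold change was 0.028 (adjusted p = 0.739 by edgeR). The Rps24 transcripts were singled out after their values were seen.

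Many ribosomal protein genes carry small nucleolar RNAs (snoRNAs), which guide the chemical modification of ribosomal RNA, in their introns. The data held 33 snoRNA genes within the span of 23 members, taken by position without a check of strand or intron. Of the 33, 32 were tested. Of these, 0 were called by edgeR and 2 had an unadjusted p under 0.05, beside 12.3% and 23.2% of all genes. Apart from Snora78 in Rps2, counted 6 and 11 times in the Dnm3os libraries and 6 and 7 times in the empty vector libraries, their counts were 2.13 to 13.3% of the host gene's count, with a median of 6.28%. For 31 of the 32, the highest of the 4 libraries was less than 1.2 times the lowest. The exception was Snora52 in Rplp2, with 10.0 and 4.18% of the host's count in the Dnm3os libraries and 10.1 and 11.1% in the empty vector libraries. Dnm3os library 2, the lowest for Snora52, was the highest for Rplp2, and their relation was not tested. Whether such reads stem from the snoRNA or from its host transcript was not tested either.

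**Figure D5:**
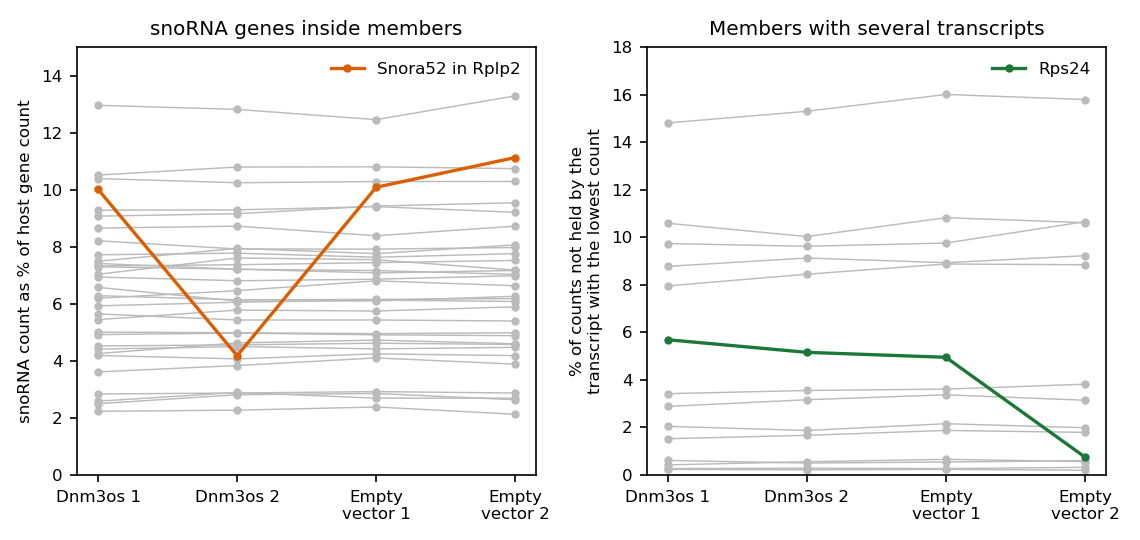
Lines join the 4 libraries for each of 32 snoRNA genes inside members (left, count as a percent of the host gene's count) and for each member with several transcripts and counts that differ between them (right, percent of the count not held by the transcript with the lowest count). Snora52 is at 4.18% in Dnm3os library 2 and Rps24 at 0.756% in empty vector library 2, while the other lines are near level.

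The rest of the ribosome and the translation machinery, taken from lists of known genes, gave few calls, beside 12.3% of all genes called and a median log2 fold change of 0.00061 over all genes. Among ribosomal proteins under other names, Fau, made as a fusion with a ubiquitin-like protein, and Rack1, a scaffold on the small subunit, were not called. Of 35 initiation factors, 2 rose and 1 fell, or 8.57%, with a median of 0.013. Eif4g2, a scaffold of cap-independent initiation, had 1981 and 1969.5 CPM in the Dnm3os libraries and 1857 and 1873 CPM in the empty vector libraries, at a log2 fold change of 0.083 ± 0.021 (SE; adjusted p = 0.0107 by edgeR). Eif2b1, a subunit of the exchange factor of eIF2, had 71.3 and 72.7 CPM in the Dnm3os libraries and 66.6 and 64.3 CPM in the empty vector libraries, at 0.14 ± 0.041 (adjusted p = 0.0290 by edgeR). Eif3a, the largest subunit of eIF3, had 726 and 736 CPM in the Dnm3os libraries and 773 and 787 CPM in the empty vector libraries, at -0.094 ± 0.026 (adjusted p = 0.0191 by edgeR). In all 3 the groups did not overlap. Eif4g2 lost its call under 4 of the 14 alternatives, with an adjusted p of 0.0737 by DESeq2, and by edgeR of 0.184 and 0.114 without Dnm3os library 1 and 2, and of 0.0921 without empty vector library 1. Eif2b1 lost its call under 5 of the 14 alternatives, with an adjusted p of 0.256 by DESeq2, and by edgeR of 0.104 and 0.216 without Dnm3os library 1 and 2, and of 0.186 without empty vector library 2. Eif3a lost its call under 4 of the 14 alternatives, with an adjusted p by edgeR of 0.199 and 0.103 without Dnm3os library 1 and 2, and of 0.115 without empty vector library 2. Of 18 elongation factors and other TOP mRNAs, 0 were called by edgeR, with a median of 0.014. At an unadjusted p under 0.05, 1 of them passed, beside 23.2% of all genes.

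The genes that build ribosomes gave few calls. Of 57 biogenesis genes, 2 rose and 1 fell, or 5.26%, with a median log2 fold change of 0.011. Tcof1, which supports ribosomal RNA transcription, had 339 and 356 CPM in the Dnm3os libraries and 319.7 and 319 CPM in the empty vector libraries, at 0.12 ± 0.032 (SE; adjusted p = 0.0116 by edgeR). Nop10, of the box H/ACA snoRNPs, had 50.1 and 50.6 CPM in the Dnm3os libraries and 45.4 and 45.5 CPM in the empty vector libraries, at 0.15 ± 0.047 (adjusted p = 0.0433 by edgeR). Imp4, of the small-subunit processome, had 113 and 121 CPM in the Dnm3os libraries and 137 and 127 CPM in the empty vector libraries, at -0.18 ± 0.041 (adjusted p = 0.00818 by edgeR). The groups did not overlap in any of the 3. Tcof1 lost its call under 2 of the 14 alternatives, with an adjusted p by edgeR of 0.227 without Dnm3os library 2, and of 0.0573 without empty vector library 1. Nop10 lost its call under 9 of the 14 alternatives, with an adjusted p of 0.322 by DESeq2, and by edgeR of 0.128 and 0.224 without Dnm3os library 1 and 2, and of 0.191 and 0.0923 without empty vector library 1 and 2. Imp4 lost its call under 1 of the 14 alternatives, with an adjusted p by edgeR of 0.148 without Dnm3os library 1. Of 20 RNA polymerase I subunits and factors and of 12 snoRNA host genes, 0 were called by edgeR and 1 in each list had an unadjusted p under 0.05. Over all genes, 12.3% were called and 23.2% had an unadjusted p under 0.05.

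Of 45 tested regulators of ribosome production around mTORC1 and MYC, 2 rose and 2 fell, or 8.89% beside 12.3% of all genes, with a median log2 fold change of 0.028. DESeq2 called 1 higher and 1 lower. Leaving out either Dnm3os library gave 1 call in each direction by edgeR. Leaving out empty vector library 1 gave 1 gene higher and 3 lower, and leaving out empty vector library 2 gave 5 higher and 1 lower. Myc had 73.9 and 71.3 CPM in the Dnm3os libraries and 64.7 and 59.6 CPM in the empty vector libraries, at 0.22 ± 0.045 (SE; adjusted p = 0.00140 by edgeR). Rptor, the scaffold of mTORC1, had 123 and 126 CPM in the Dnm3os libraries and 137 and 145 CPM in the empty vector libraries, at -0.18 ± 0.034 (adjusted p = 0.000738 by edgeR). Both kept their call under all 14 alternatives tried. Mga, which competes with MYC for the partner MAX, had 72.5 and 70.7 CPM in the Dnm3os libraries and 75.4 and 82.3 CPM in the empty vector libraries, at -0.14 ± 0.044 (adjusted p = 0.0410 by edgeR). Mga lost its call under 6 of the 14 alternatives, with an adjusted p of 0.255 by DESeq2, and by edgeR of 0.143 and 0.302 without Dnm3os library 1 and 2, and of 0.473 without empty vector library 2. The second gene that rose was Sesn2, an inhibitor of mTORC1 that is named after its values were seen.

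On the p53 side of the ribosome's surveillance, 4 of 15 tested genes were called lower and 0 higher, with a median log2 fold change of -0.043. The 4 called genes are 26.7% of the list, beside 12.3% of all genes called and 5.75% called lower. The list did not move as one, since 6 of the 15 had a log2 fold change above 0, up to 0.31. At an unadjusted p under 0.05, 7 genes passed, 5 of them lower, beside 23.2% of all genes. With no filter and with the replicate block, edgeR called 1 gene of the list higher. DESeq2 called 1 lower, and edgeR called 2 lower without Dnm3os library 1, 1 without Dnm3os library 2 and 2 without empty vector library 1. Mdm2, the ligase that RPL5 and RPL11 bind, had 156 and 156 CPM in the Dnm3os libraries and 171 and 178 CPM in the empty vector libraries, at -0.16 ± 0.032 (SE; adjusted p = 0.00130 by edgeR), a call kept under all 14 alternatives. The p53 targets Zmat3 and Trp53inp1 also fell. Zmat3 had 39.1 and 40.4 CPM in the Dnm3os libraries and 45.4 and 44.4 CPM in the empty vector libraries, at -0.18 ± 0.051 (adjusted p = 0.0263 by edgeR). Trp53inp1 had 1.83 and 1.46 CPM in the Dnm3os libraries and 2.53 and 2.72 CPM in the empty vector libraries, at -0.68 ± 0.19 (adjusted p = 0.0216 by edgeR). Zmat3 lost its call under 5 of the 14 alternatives, with an adjusted p of 0.195 by DESeq2, and by edgeR of 0.162 and 0.0860 without Dnm3os library 1 and 2, and of 0.124 without empty vector library 1. Trp53inp1 lost its call under 3 of the 14 alternatives, with an adjusted p of 0.292 by DESeq2, and by edgeR of 0.252 without Dnm3os library 2, and of 0.0858 without empty vector library 2. The remaining gene that fell was Bax, a promoter of apoptosis that is named after its values were seen.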

How the data were processed

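Poly(A) RNA was turned into TruSeq libraries for Illumina sequencing, per the labels' protocols. TopHat, Bowtie2, DESeq2 and the build mm9 are named, per the submitters' processing notes, without versions or roles; which program counted reads, on which annotation and with which strand setting, is not given in the sources used here, so overlapping antisense genes could not be told apart. Per the file headers, the authors deposited a raw read count and a normalized value for each of 35786 RefSeq transcripts. The deposited normalized value is a scaled signal, each library's raw counts multiplied by its own constant (1.1723 and 1.0058 for Dnm3os, 0.8653 and 0.9775 for empty vector); it was not used further.

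Symbols came from RefSeq (35499 transcripts) and GENCODE (178) tables. Transcript lengths came from GENCODE transcripts matched to the RefSeq transcript, and not from RefSeq itself. The 109 unnamed transcripts held 0.246 to 0.276% of the counts; 108 were kept under their own names and the ribosomal RNA precursor was left out. Each gene was represented by its transcript of highest mean count, which left out 39.4% of all counts, since isoforms share counts. Low counts were removed by filterByExpr, libraries scaled by TMM with factors of 0.997 to 1.003, and genes tested in edgeR 4.0.16 (robust glmQLFit, glmQLFTest, two-sided) in R 4.3.3, with Benjamini-Hochberg adjustment over 13172 genes and a threshold of 0.05. SE and 95% intervals of log2 fold changes come from the same test. The procedure was also run on simulated counts in which every gene had the same spread between replicates. The genes of these libraries differ in spread, so that run does not give the error rate here. Promoter sequences are those of RefSeq, build GRCm38.p6; gene positions are otherwise not given, since that build is not the one in the notes. The symbols Gnb2l1, Noc2l, Epb4.1l4aos and Emr1 found no match.

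The members, the lists and the alternatives were chosen with earlier results of these data known. Named genes were a fixed set of members, paralog pairs, called members, the 5 highest and 5 lowest per kilobase, and up to 3 called genes of each other list; Rpl28, Rpl41, Snora52 and Snora78 were named after their values were seen. Some genes are not reported individually here. The 14 alternatives were DESeq2 1.42.0, limma-voom (limma 3.58.1), DESeq2 size factors, upper-quartile factors, total counts, scaling without the ribosomal protein genes, no filter, a filter at 1 CPM in 2 libraries, isoforms summed, a replicate block, and each library left out in turn. Where a library is left out, the single one remaining in its group is taken to vary as the rest do. Libraries of a group differed beyond sampling noise (chi-square per degree of freedom 4.08 and 4.95), so none was counted as a second deposit of the same library; whether they share a culture or an RNA sample is not known.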

Additional observations from a re-analysis of the deposited data

How the results depend on the processing

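No member was called lower under any alternative. DESeq2 called 404 genes higher and 362 lower over all genes and 1 member; among the lists it called 0 initiation factors, 1 biogenesis gene, 1 mTORC1 and MYC regulator and 0 mitochondrial ribosomal proteins higher, and 1 mTORC1 and MYC regulator, 1 p53 gene and 0 Rps6k kinases lower. Limma-voom called 1 mTORC1 and MYC regulator and 0 Rps6k kinases lower. With isoforms summed, 2 members, 1 initiation factor, 1 biogenesis gene, 1 mTORC1 and MYC regulator and 1 mitochondrial gene were higher, and 0 initiation factors, 2 p53 genes and 0 Rps6k kinases lower. The replicate numbers were not taken to pair the libraries. The correlation of same-numbered deviations was -0.08 over all genes tested and -0.47 over the 86 tested members. With 2 libraries per group, these values cannot tell whether the libraries were paired. With the replicate block, 2 members (Rpl34 and Rps29), 1 biogenesis gene and 1 p53 gene were higher. The adjusted p by edgeR with this block was 0.0532 for Rps10, 0.0771 for Rpl13 and 0.0620 for Nop10. Upper-quartile factors and a filter at 1 CPM each gave 1 biogenesis gene higher and 2 lower. Upper-quartile factors, DESeq2 size factors and scaling without the ribosomal protein genes each gave 1 mTORC1 and MYC regulator higher. DESeq2 size factors, total counts, scaling without the ribosomal protein genes and no filter each gave 2 biogenesis genes lower. No filter also gave 1 p53 gene higher and 1 mitochondrial gene lower. The share difference was 0.0885 percentage points with counts over all transcripts as denominator, which lowers the share of every library. Among members near 0, the log2 fold change of Rps3 was -0.00086 with upper-quartile factors and -0.0014 with no filter. That of Rpl39 was -0.0014 with DESeq2, -0.0013 with limma-voom, -0.0013 with DESeq2 size factors, -0.0033 with upper-quartile factors, -0.0012 with scaling without the ribosomal protein genes, -0.0038 with no filter, -0.0021 with a filter at 1 CPM and -6.3e-05 with the replicate block. That of Rps3a1 was -0.0012 with DESeq2, -0.0012 with DESeq2 size factors, -0.0032 with upper-quartile factors, -0.0011 with scaling without the ribosomal protein genes, -0.0037 with no filter and -0.0020 with a filter at 1 CPM.

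Leaving out each library in turn gave 465 to 808 genes higher and 396 to 786 lower over all genes, 0 to 5 members higher, and a median log2 fold change of the members of 0.020 to 0.038. Over the lists it gave 0 to 2 initiation factors higher and 0 to 1 lower, 0 to 1 biogenesis genes higher and 0 to 2 lower, 1 to 5 mTORC1 and MYC regulators higher and 1 to 3 lower, 0 to 1 p53 genes higher and 1 to 3 lower, 0 to 3 mitochondrial ribosomal proteins higher and 0 to 1 lower, and 0 to 1 Rps6k kinases in each direction. Log2 fold changes whose sign turned ran from -0.0077 to 0.0092 for Rps3, -0.027 to 0.015 for Rps6, -0.015 to 0.019 for Rps14, -0.024 to 0.00049 for Rps27a, -0.020 to 0.016 for Rpl5, -0.013 to 0.00069 for Rpl11, -0.065 to 0.063 for Rpl39, -0.011 to 0.035 for Rpl7, -0.0034 to 0.046 for Rpl22, -0.013 to 0.029 for Rps4x, -0.020 to 0.018 for Rps3a1 and -0.022 to 0.0024 for Rps12. The cause of these shifts was not tested. For Rpl10l, Rpl39l, Rpl3l and Rps4l, with 0 to 3 counts per library, a difference was not detectable at this depth.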

Other observations

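Mitochondrial ribosomes, which translate the mRNAs of mitochondrial DNA, are built from a separate set of nuclear genes. All 78 matched Mrpl and Mrps genes were tested, and 3 rose and 0 fell, which is 3.85% beside the 12.3% of all genes. The median log2 fold change was 0.039, with 56 above 0, and both Dnm3os libraries lay above both empty vector libraries for 33 of 78, or 42.3%, beside 26.2% of all genes tested. Mrpl12, which also binds the mitochondrial RNA polymerase, had 149 and 155 CPM in the Dnm3os libraries and 143 and 139 CPM in the empty vector libraries, at 0.11 ± 0.032 (SE; adjusted p = 0.0270 by edgeR). Mrps23 had 58.6 and 61.0 CPM in the Dnm3os libraries and 54.6 and 53.5 CPM in the empty vector libraries, at 0.15 ± 0.045 (adjusted p = 0.0316 by edgeR). Mrpl36 had 30.3 and 32.0 CPM in the Dnm3os libraries and 27.9 and 26.5 CPM in the empty vector libraries, at 0.20 ± 0.061 (adjusted p = 0.0357 by edgeR). Mrpl12 lost its call under 5 of the 14 alternatives, with an adjusted p of 0.240 by DESeq2, and by edgeR of 0.0791 and 0.296 without Dnm3os library 1 and 2, and of 0.155 without empty vector library 2. Mrps23 lost its call under 5 of the 14 alternatives, with an adjusted p of 0.267 by DESeq2, and by edgeR of 0.0625 and 0.285 without Dnm3os library 1 and 2, and of 0.0730 and 0.127 without empty vector library 1 and 2. Mrpl36 lost its call under 5 of the 14 alternatives, with an adjusted p of 0.276 by DESeq2, and by edgeR of 0.0842 and 0.271 without Dnm3os library 1 and 2, and of 0.186 without empty vector library 2.

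Of the 10 Rps6k kinases, which share the symbol stem without being ribosomal proteins, 8 were tested. Of these, 1 was called higher and 1 lower, or 25%, beside 12.3% of all genes. Rps6ka3 rose, with 105 and 109 CPM in the Dnm3os libraries and 94.3 and 95.8 CPM in the empty vector libraries, at 0.17 ± 0.036 (SE; adjusted p = 0.00195 by edgeR, and 0.0692 without Dnm3os library 2). Rps6ka2 fell, with 4.99 and 6.04 CPM in the Dnm3os libraries and 6.62 and 8.46 CPM in the empty vector libraries, at -0.44 ± 0.13 (adjusted p = 0.0353 by edgeR). Rps6ka2 lost its call under 6 of the 14 alternatives, with an adjusted p of 0.226 by DESeq2, and by edgeR of 0.296 and 0.0656 without Dnm3os library 1 and 2, and of 0.308 without empty vector library 2.

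The 77 small-subunit, large-subunit and stalk genes lay on 19 chromosomes, with at most 14 on 1 chromosome and 4 on the X chromosome.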
